A study of Homo sapiens with 2 samples.

Results

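Intronic transcripts were followed in WI-38, a fibroblast line from human lung, between a young culture at population doubling level 20 and a culture in replicative senescence at level 52. They were the rows of the authors' transcript table that carried the intronic class, measured at least 200 bases and lay outside the Y chromosome. This choice gave 20745 of 201744 transcripts (10.3%), under 5128 host gene names. Both cultures were grown in DMEM and no other agent, allele or transgene is named in the labels. Total RNA was sequenced, and each group held 1 library of 1 culture. No spread between cultures is therefore known, every difference below is one between 2 libraries, and no test was made. In RNA of a whole culture, fewer cells of a kind and less RNA per cell cannot be told apart.

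An intron is copied into RNA together with the exons around it and is then cut out by the spliceosome as a lariat, which is opened by a debranching enzyme and degraded in the nucleus. RNA that maps inside an intron can come from unspliced or partly spliced precursor, from a lariat that has escaped decay, from transcripts that end at a polyadenylation site within an intron, or from a separate gene. A total RNA library takes up such molecules whether or not they have a polyA tail. Introns also carry microRNA genes, whose hairpins are cut from the intron to give small RNAs that pair with messages through a seed near their 5′ end.

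Values are FPKM, fragment numbers corrected for transcript length and library size, and the young library comes first. Ratios are log2 of senescent over young after 1 FPKM was added to both, which understates the difference of low transcripts. A transcript was taken as measured if either library gave it 1 FPKM or more, and was called higher or lower in the senescent library from a 2-fold difference on this scale. The spacing of low values put the effective depth at 15910000 fragments (young) and 14810000 fragments (senescent). A transcript of the median length of 727 bases at 1 FPKM then stands for about 8.38 young or 7.80 senescent fragments, so single low transcripts are imprecise from counting alone. All 12 fibroblast markers examined reached 1 FPKM in both libraries, with summed levels of 10874 and 5982 FPKM. Of the markers of other cells, 4 of 10 epithelial, 2 of 8 endothelial and 3 of 11 blood genes did, with summed levels of at most 72.2 FPKM. Their part in the results was not tested.

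The spans of 197 host genes contained 223 annotated microRNA genes in the file's coordinates, of which 113 matched a RefSeq entry by symbol. Whether each lies in an intron of its host was not determined. The mature sequences that follow belong to some of the microRNA genes within or next to hosts described in this report. The intronic values of these hosts are given further on, and the sequences were chosen after the values were seen. They are RefSeq sequences of build GRCh38.p14, written 5′ to 3′, with the seed (bases 2 to 8) in capitals.
hsa-miR-708-5p (in ODZ4): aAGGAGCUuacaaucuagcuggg
hsa-miR-28-3p (in LPP): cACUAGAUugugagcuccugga
hsa-miR-99a-5p (in C21orf34): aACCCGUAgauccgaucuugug
hsa-let-7c-5p (in C21orf34): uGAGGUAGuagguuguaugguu
hsa-miR-125b-5p (in C21orf34): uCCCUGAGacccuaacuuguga
hsa-miR-30a-5p (in C6orf155): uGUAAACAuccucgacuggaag
hsa-miR-30c-5p (in C6orf155): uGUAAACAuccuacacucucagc
hsa-miR-143-3p (past the end of RP11-394O4.2): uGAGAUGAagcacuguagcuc
hsa-miR-145-5p (past the end of RP11-394O4.2): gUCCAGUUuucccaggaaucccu
Among those shown, miR-30a-5p and miR-30c-5p share a seed. The libraries measure long RNA, so the intronic levels given for these hosts are not those of the mature microRNAs. They cover all intronic transcripts of a host and not only those near the microRNA gene.

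Most intronic transcripts were at a lower level in the senescent library. The median over all members was 1.96 FPKM for young and 1.09 FPKM for senescent cells, and 15751 members had the higher value in the young library against 4885 in the senescent one. Of 17331 measured members, 4014 (23.2%) were called lower and 578 (3.34%) higher in the senescent library, where 17.9% and 10.7% of all 80195 measured transcripts were. The median log2 ratio of the measured members was −0.56, with quartiles at −0.97 and −0.10. That of all 17938 measured genes was −0.10, with 8.59% lower and 6.66% higher. The share of the library that fell on intronic transcripts, computed as FPKM times length, was 4.90% for young and 3.17% for senescent cells.

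The size of this difference depended on which library was used to call a transcript measured. With 1 FPKM required in the young library the median was −0.62, with 4014 lower and 191 higher. With 1 FPKM required in the senescent library the median was −0.28, with 1225 lower and 578 higher, and with both required it was −0.37, with 1225 lower and 191 higher. Lower transcripts outnumbered higher ones under each of these filters, which were added after the values were seen. With a pseudocount of 0.1 FPKM in place of 1 FPKM, 7587 were lower and 1134 higher.

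**Figure D1:**
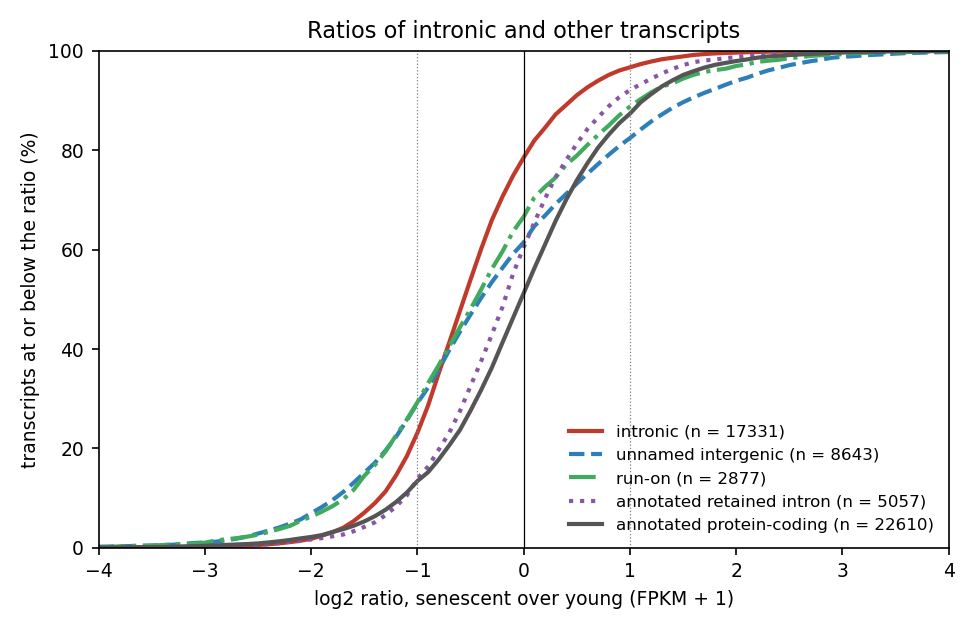
Cumulative share of measured transcripts (y axis, %) against the log2 ratio of senescent over young FPKM after adding 1 (x axis), by class of the authors' table, with dotted lines at a 2-fold difference. The intronic curve crosses its median at −0.56, and from a ratio of −1.7 upward it lies to the left of that of annotated protein-coding transcripts, whose median was −0.03. In the far lower tail the curves cross, with 1.83% of intronic and 2.19% of protein-coding transcripts at or below −2.

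Other transcript classes were set beside the intronic one. Annotated protein-coding transcripts had a median log2 ratio of −0.03 over 22610 measured transcripts, and transcripts annotated as retained introns had −0.18 over 5057. The classes nearest in kind were small, with −0.15 for 287 transcripts classed as pre-mRNA, of which 12.2% were lower and 9.06% higher, and −0.30 for 64 annotated sense intronic transcripts, of which 4.69% were lower and 1.56% higher. Unnamed intergenic transcripts had −0.41 and transcripts classed as possible polymerase run-on −0.45, but both spread more widely. At least 2-fold lower were 29.1% and 29.3% of them, above the 23.2% of intronic transcripts, and 17.6% and 11.2% were at least 2-fold higher. Where 1 FPKM was required in both libraries, the medians were −0.37 for intronic, −0.23 for intergenic, −0.22 for run-on, −0.07 for retained intron and 0.02 for protein-coding transcripts. The intergenic median turned to 0.08 where 1 FPKM was required in the senescent library, and those of the intronic and run-on classes were −0.28 and −0.12 under that filter.

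The lower level of intronic transcripts was seen across sizes and levels. Transcripts of 200 to 300 bases had a median ratio of −0.50 and those of 2000 bases or more also −0.50. Hosts spanning less than 30000 bases gave −0.56 and hosts spanning 400000 to 800000 bases gave −0.64. Members with a mean of 10 FPKM or more gave −0.43. In every bin of length, gene size, host level and member level that was computed the median was below 0. The members themselves had a median length of 727 bases, with quartiles of 614 and 931, and 94.1% lay in protein-coding hosts. At the length limit, the 98 members under 20 bases above it had median levels of 3.03 and 1.08 FPKM, and 109 intronic rows up to 20 bases below it, left out by the rule, had 2.24 and 2.02 FPKM.

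Intronic transcripts were next compared with their own hosts, whose level was the summed FPKM of the transcripts classed as matches, isoforms or contained fragments of the gene. A measured host was at hand for 16680 measured members, in 4494 hosts. The host genes themselves stood near the other genes, with a median ratio of −0.12 over 4757 measured hosts. The log2 ratio of a member less that of its host had a median of −0.39 and was below 0 for 72.5% of members. It was at least 2-fold below the host's for 2887 members (17.3%) and above it for 550 (3.30%). Among 3698 other transcripts outside the gene sum, such as run-on and overlapping ones, 18.5% lay as far below their gene and 8.44% as far above, so the share of members far below the host was near that background. With a pseudocount of 0.1 FPKM, 5947 members lay below and 859 above. Member and host ratios had a Pearson correlation of 0.554 and a Spearman correlation of 0.495 across members, which share libraries and hosts and are not independent.

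Among members called in a host that was itself called, most were called in the host's direction, but many members of such hosts were within 2-fold. In the 250 hosts at least 2-fold higher, 222 of 1004 members were higher, 36 lower and 746 within 2-fold, and the median ratio was 0.42 for members beside 1.38 for hosts. In the 410 hosts at least 2-fold lower, 1165 of 1781 members were lower, 11 higher and 605 within 2-fold, with medians of −1.24 and −1.42. In the 3834 hosts within 2-fold, 2607 of 13895 members were lower and 281 higher, and their medians were −0.54 for members beside −0.09 for hosts. The lower intronic level was thus also seen where the host's own level was similar in both libraries. Because 1 FPKM was added before the ratio was taken, a low member moves less on this scale than a highly expressed host with the same plain ratio.

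**Figure D2:**
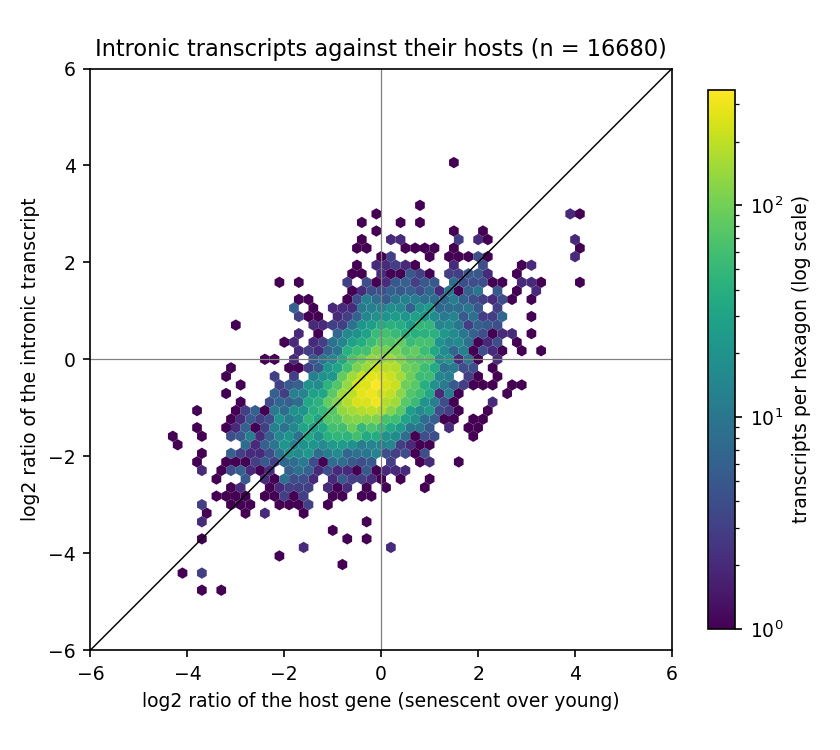
Log2 ratio of each measured intronic transcript (y axis) against that of its host gene (x axis), senescent over young, for 16680 transcripts, coloured by the number per hexagon on a log scale, with the line of equality. The densest hexagons lie below the line and below 0 on the y axis, where hosts are near 0.

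For hosts with 3 or more intronic transcripts, these were pooled into a mean level weighted by length. Of 2103 such hosts measured, 251 (11.9%) had an intronic level called lower in the senescent library and 22 (1.05%) one called higher. These counts depend on the pseudocount, and were 497 and 34 at 0.5 FPKM and 765 and 50 at 0.1 FPKM. The gene sums of such hosts were 2-fold lower in 9.26% and higher in 4.75%. Among the 251 hosts with lower introns the host gene was also lower in 117 and within 2-fold in 134. Among the 22 with higher introns it was higher in 14 and within 2-fold in 8. No host had introns and gene sum called in opposite directions. In the 1960 hosts at 1 FPKM or more in both libraries, the intronic level had a median of 19.3% of the host level in the young library (quartiles 10.3% and 35.1%) and 11.8% in the senescent library (quartiles 5.77% and 23.5%). This percentage was lower in the senescent library in 1717 of them.

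**Figure D3:**
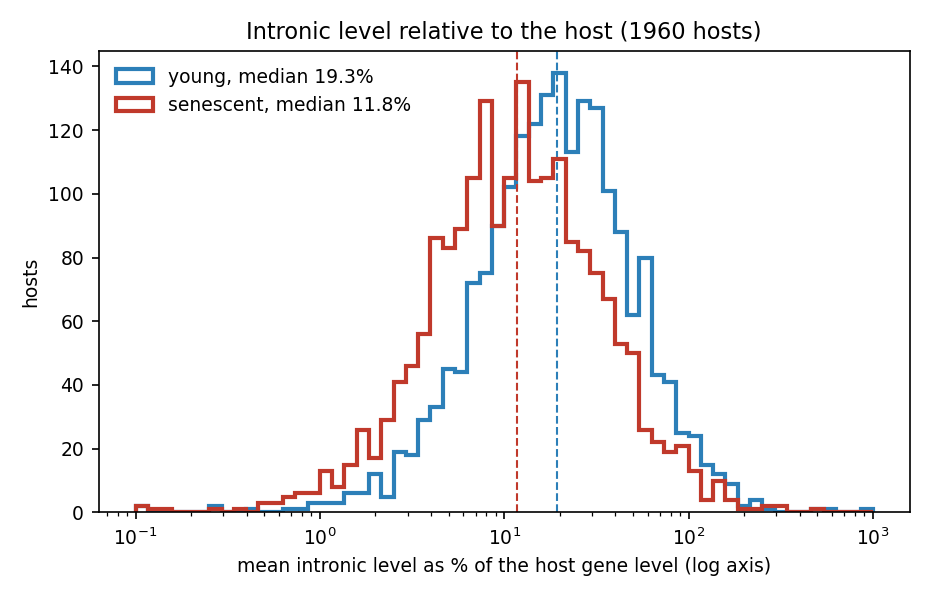
Number of hosts (y axis) by the mean intronic level as a percentage of the host gene level (x axis, log scale) in the young and senescent libraries, for 1960 hosts with 3 or more intronic transcripts. Dashed lines are the medians, 19.3% for young and 11.8% for senescent cells, and values beyond the axis are drawn in its end bins.

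The 12 hosts with the most intronic transcripts were large genes, and they are given here in groups that overlap. THSD4, a microfibril-associated matrix protein (chr15:71389291-72075722, plus strand, hg19), held 77, with a lowest, median and highest level of 1.12, 5.86 and 49.8 FPKM in the young library and 0, 1.32 and 9.09 FPKM in the senescent library. Of these, 62 were called lower and none higher, and the host gene stood at 33.4 and 10.7 FPKM. ODZ4, a teneurin of the cell surface (chr11:78363876-79151992, minus strand), held 61 that spanned 1.29 to 15.9 FPKM in the young library with a median of 3.63 FPKM. In the senescent library the same transcripts spanned 0 to 4.71 FPKM with a median of 0.363 FPKM. All 61 had a negative ratio and 58 were at least 2-fold lower, beside a host at 57.0 and 14.0 FPKM. SEMA5A, a semaphorin guidance molecule (chr5:9035138-9546187, minus strand), had a median intronic level of 2.59 and 0.680 FPKM, with 27 of 46 measured transcripts lower and a host at 19.0 and 8.32 FPKM. On the scale with 1 FPKM added, introns and host were lower by similar log2 ratios in these 3 genes. The ratios were −1.66 and −1.55 in THSD4, −1.89 and −1.95 in ODZ4 and −1.11 and −1.10 in SEMA5A. Without the added 1 FPKM, the mean intronic level as a percentage of the host level was lower in the senescent library in each. It was 19.8% and 13.1% in THSD4, 7.99% and 3.58% in ODZ4 and 15.9% and 10.4% in SEMA5A.

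In several other large hosts the intronic ratio was below that of the gene. RORA, a nuclear receptor linked to the circadian clock (chr15:60780483-61521518, minus strand), held the most, 142 intronic transcripts, whose median was 1.74 and 1.40 FPKM with a range of 0 to 7.56 and 0 to 16.3 FPKM. Of 128 measured, 14 were higher and 18 lower, while the host stood at 2.88 and 6.68 FPKM. SAMD4A, a homologue of the translational repressor Smaug (chr14:55033815-55260033, plus strand), had 61 with medians of 3.72 and 4.62 FPKM. Only 2 of its 59 measured transcripts were higher and 1 lower, although the host was 12.7 and 26.7 FPKM. TRHDE, the enzyme that degrades thyrotropin-releasing hormone (chr12:72481046-73059422, plus strand), had medians of 5.35 and 2.57 FPKM, with 15 of 52 measured transcripts lower and 1 higher. Its host gene was nearly level at 55.5 and 54.1 FPKM. AC092135.1, which the file describes as c-Maf inducing protein, had intronic medians of 1.08 and 0.672 FPKM beside a host at 3.77 and 6.70 FPKM.

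The remaining hosts of the 12 had host genes within 2-fold on the scale used, with few or mixed calls among their introns. In 3 of them the pooled intronic log2 ratio was also clearly below that of the gene, and in CACNA1C it was only slightly below, at −0.49 beside −0.46. In the 3 the intronic and gene ratios were 0.38 and 0.76 in ZNF804A, −0.33 and 0.14 in TANC1 and −0.08 and 0.32 in ATXN7L1. ZNF804A, a zinc finger protein, had 81 intronic transcripts, of which 5 of 61 measured were higher and 2 lower, with a host at 1.51 and 3.25 FPKM. CACNA1C, the pore subunit of an L-type calcium channel, had 4 of 47 lower and none higher, with a host at 20.3 and 14.5 FPKM. TANC1, a scaffold protein, had 10 of 57 lower and 4 higher with a host at 10.9 and 12.1 FPKM, and ATXN7L1 had 1 of 26 in each direction. The 61 intronic transcripts of FRMPD4, a synaptic scaffold, reached at most 0.928 FPKM, so none counted as measured.

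**Figure D4:**
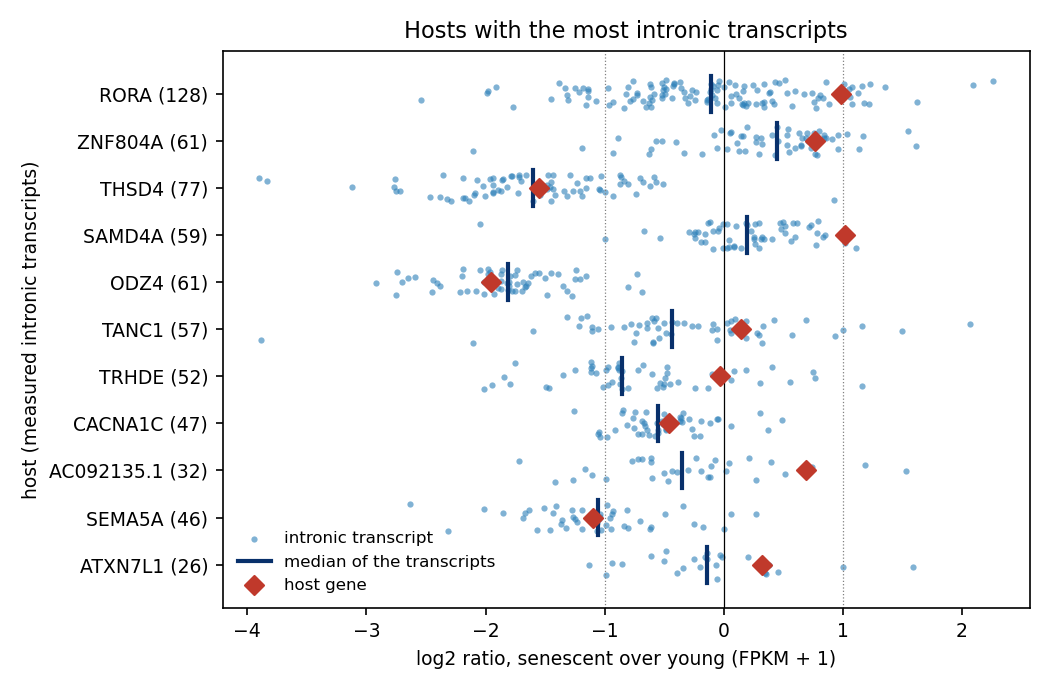
Log2 ratio, senescent over young after adding 1 FPKM (x axis), of each measured intronic transcript in the hosts with the most of them (y axis, number measured in brackets), with the median as a bar and the host gene as a diamond. FRMPD4 had none measured and is left out, and in ODZ4 every point lies below 0.

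The spread of ratios within a host and the spread of host medians are given side by side. They are unlike measures, since a median over many transcripts varies less from counting than a single ratio. Among the 360 hosts with 10 or more measured intronic transcripts (6232 in all), the SD of the ratios within a host had a median of 0.48 and a range of 0.17 to 1.55, and the SD of the host medians was 0.57. No transcript was 2-fold higher in 271 of them, all ratios were below 0 in 86 and all were above 0 in 8. Calls in both directions occurred in 50 hosts. Transcripts of 1 host share a locus and a library and are not replicates of the condition.

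Every measured intronic transcript was at least 2-fold lower in 7 of those hosts, among them ADAMTS6, BACH2, EYA4, GPC6, LASS6 and LDB2. These, and the hosts of the opposite kind that follow, are named after their values were seen. In GPC6, a glypican that carries heparan sulfate at the cell surface, 10 transcripts had a median of 13.0 FPKM in the young library and of 0 FPKM in the senescent library, where the highest was 2.43 FPKM. The GPC6 gene stood at 34.7 and 1.66 FPKM. In EYA4, a transcriptional coactivator and phosphatase, 12 transcripts had medians of 8.58 and 1.89 FPKM beside a host at 38.5 and 10.3 FPKM. In BACH2, a transcriptional repressor, 10 had medians of 1.98 and 0.149 FPKM and in LDB2, a LIM-domain-binding cofactor, 11 had 2.92 and 0.0793 FPKM. The ceramide synthase gene LASS6 had a smaller difference in the host than in its introns, at 3.20 and 1.19 FPKM for the gene and 2.31 and 0.202 FPKM for the mean intronic level.

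The 8 hosts whose measured intronic transcripts all had positive ratios included EDIL3, FMN2, ITGA2, NEK10, PCDH9, RP11-428C6.1 and SGIP1. In NEK10, a kinase of the NIMA family, the 12 transcripts had medians of 1.89 and 8.44 FPKM and 11 were at least 2-fold higher, beside a host at 4.85 and 22.9 FPKM. In RP11-428C6.1, 17 of 26 were higher, with medians of 0.919 and 3.45 FPKM. In PCDH9, a protocadherin, 11 of 15 were higher, with a host at 2.34 and 8.52 FPKM. EDIL3, a secreted integrin ligand, had 5 of 10 higher, with medians of 1.09 and 2.55 FPKM and a host at 8.44 and 48.3 FPKM. The strand of the reads is not given in the sources used here, so the part of genes that overlap a host in its intronic values was not tested.

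The lowest pooled intronic ratios were those of TOX, GPC6, SIPA1L2, DCHS1 and CDH2. The 3 intronic transcripts of TOX, an HMG-box nuclear protein, had 18.0, 16.5 and 11.4 FPKM in the young library and 0.510, 0.803 and 0.314 FPKM in the senescent library. All 3 were far lower in the senescent library, as was the gene at 39.3 and 2.20 FPKM. An overlapping noncoding transcript gene on the opposite strand, RP11-25K19.1, stood at 6.01 and 0.281 FPKM, and one across DCHS1, RP11-732A19.5, at 10.7 and 0.373 FPKM. The introns of SIPA1L2 had a mean of 6.15 and 0.288 FPKM, those of the cadherin DCHS1 4.68 and 0.0874 FPKM, and those of N-cadherin, CDH2, 6.32 and 0.501 FPKM. Each of the 5 host genes was also at least 2-fold lower.

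The highest pooled intronic ratios were those of ADAMTS19, E2F7, AC010982.1, NEK10 and SERINC2. The 6 intronic transcripts of ADAMTS19, a secreted metalloprotease, lay between 0.239 and 1.19 FPKM in the young library and between 5.17 and 12.8 FPKM in the senescent library. The host stood at 2.05 and 48.9 FPKM, and an antisense gene across it, RP11-346A9.1, at 0.145 and 8.35 FPKM. The 3 intronic transcripts of E2F7, an E2F family repressor of cell cycle genes, had 2.91, 2.31 and 0.900 FPKM in the young library and 23.1, 12.4 and 9.65 FPKM in the senescent library. The E2F7 gene was higher too, at 3.43 and 18.3 FPKM. In AC010982.1 the mean intronic level was 0.542 and 4.80 FPKM while the gene itself stayed under 1 FPKM, at 0.0891 and 0.838 FPKM, and AC110769.3, a noncoding gene that overlaps it on the same strand, was 0.724 and 4.32 FPKM. SERINC2, a membrane protein, had a mean intronic level of 3.96 and 13.8 FPKM and a host at 47.5 and 363 FPKM. Of its 3 intronic transcripts 2 were called higher, and 1 had a negative ratio of −0.46.

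Single transcripts were named among those that reached 5 FPKM in either library. Of the 10 with the lowest and the 10 with the highest ratio, 16 were shorter than 500 bases and 13 were listed at 0 in one library. Short transcripts rest on few fragments, since 1 fragment on 250 bases is worth 1.26 FPKM for young and 1.35 FPKM for senescent cells. A 330-base transcript in GPC6 at 20.8 FPKM and listed at 0 corresponded to about 43.1 fragments, and a 315-base one in IL1RAPL1, listed at 0 and then at 16.4 FPKM, to about 28.0. For intronic transcripts this conversion is only approximate, since it gave whole fragments for 43.0% (young) and 52.4% (senescent) of their low values. Close to 200 bases it fails, as it gives 0.304 fragments to a 201-base transcript of GPC6 at 19.1 FPKM. Others of this kind lay in RP11-122A3.2, RP11-138I17.1, ELOVL2 and THSD4 at the low end and in MAP1A, SIPA1L3, COPA, KRT86 and FZD4 at the high end. At the high end IGFBP7, a secreted binding protein of insulin-like growth factors, had 2 short transcripts at 3.04 and 32.0 FPKM and at 0.375 and 9.25 FPKM, with a host at 49.2 and 741 FPKM. The FZD4 transcript, at 2.68 and 23.6 FPKM, lay in a host at 0.992 and 1.57 FPKM that overlaps PRSS23, a serine protease gene on the opposite strand at 11.0 and 74.6 FPKM.

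Transcripts of 500 bases or more rest on more fragments, and were taken by themselves, a limit set after the values were seen. At the low end, a 790-base transcript in the long noncoding RNA gene RP11-394O4.2 (chr5:148786252-148805957, plus strand) stood at 34.6 and 0.364 FPKM. The approximate conversion gives this transcript about 325 and 3.18 fragments. Its level was higher than that of the host, at 11.9 and 0.353 FPKM. The microRNA genes MIR143 and MIR145 begin 2524 and 4252 bases past the annotated end of this host. A 2324-base transcript that overlaps MIR145 by its exon, not itself a member, was 21.9 and 0.235 FPKM. TNFRSF19, a receptor of the tumour necrosis factor family (chr13:24144509-24250232, plus strand), had a 637-base intronic transcript at 37.0 and 0.787 FPKM beside a host at 124 and 5.94 FPKM. Transcripts in CREB5 (11.5 and 0.333 FPKM), LRIG1 (12.5 and 0.642 FPKM) and AP001347.6 (12.8 and 0.512 FPKM) were lower as well, and those in DCHS1 (9.49 FPKM) and RASL12 (7.33 FPKM) were listed at 0 in the senescent library. For AP001347.6 the host was under 1 FPKM in both libraries.

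At the high end of the longer transcripts, besides ADAMTS19, E2F7 and NEK10, stood single transcripts in RP11-213H15.3, AC010982.1 and R3HCC1. The one in RP11-213H15.3 was listed at 0 for young and at 5.91 FPKM for senescent cells. The one in R3HCC1 was 0.597 and 8.09 FPKM in a host at 11.1 and 15.6 FPKM, and 4 of the 5 intronic transcripts of R3HCC1 were higher.

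**Figure D5:**
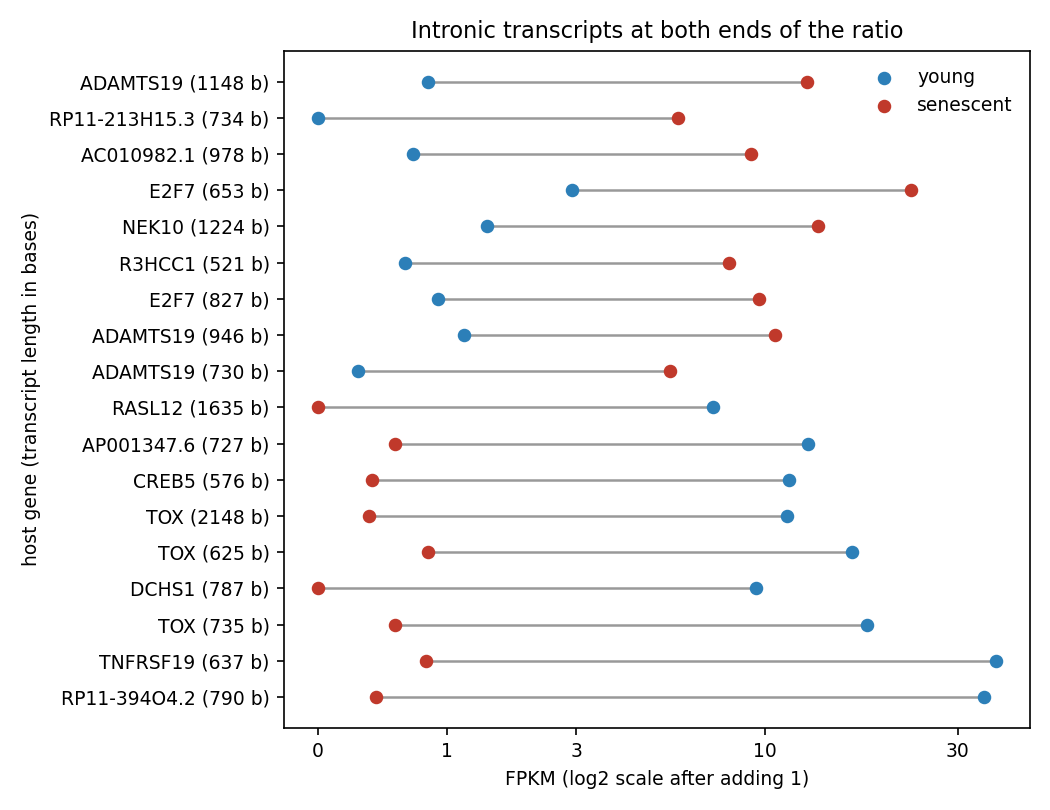
FPKM in the young (blue) and senescent (red) library (x axis, log2 scale after adding 1) for the 9 intronic transcripts of highest and the 9 of lowest ratio among those of 500 bases or more at 5 FPKM or more (y axis, host and length). The widest separation is that of RP11-394O4.2, at 34.6 and 0.364 FPKM.

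The most abundant intronic transcript lay in ANKRD30BL, at 1613 and 2394 FPKM over 1710 bases, in a host of only 1.91 and 1.29 FPKM. It exceeded its host by far in both libraries, and its level differed by less than 2-fold. The next in the young library lay in COL6A3, a chain of collagen VI (chr2:238232646-238323018, minus strand), at 345 and 52.4 FPKM beside a host at 1567 and 214 FPKM. Transcripts in SEPT11, a septin, at 131 and 70.8 FPKM, in EIF3A, a translation initiation factor subunit, at 94.4 and 107 FPKM, and in GAS6, a ligand of TAM receptors, at 50.4 and 69.6 FPKM were within 2-fold. A 420-base transcript in DUSP6, a phosphatase that inactivates ERK (chr12:89741050-89747048, minus strand), stood at 9.56 and 60.4 FPKM. It was higher in the senescent library like its host, at 8.30 and 37.3 FPKM. Short transcripts of AMAC1L3, FUT8 and FARP1 also ranked among the 6 most abundant of a library, each within 2-fold.

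Some transcripts differed from their host in direction or in the size of the difference. A 690-base transcript within CENPA, the centromeric histone H3 variant, stood at 7.06 and 23.5 FPKM while CENPA itself was 5.21 and 0.392 FPKM. C2orf18, a gene that overlaps CENPA on the same strand, was 24.7 and 42.5 FPKM, and its part in the value was not tested. A 513-base transcript in TYMS, thymidylate synthase, was within 2-fold, at 7.06 and 5.47 FPKM, beside a host that was far lower, at 50.8 and 4.93 FPKM. ENOSF1, which overlaps TYMS on the opposite strand, was 7.62 and 6.78 FPKM. A 1972-base transcript in GSTO2, a glutathione transferase, was 0.999 and 8.34 FPKM beside a host at 2.06 and 1.25 FPKM. In the other direction, transcripts in REEP5 (5.58 and 1.73 FPKM), ANTXR1 (17.8 and 4.94 FPKM) and MXD1 (5.90 and 1.95 FPKM) were lower in hosts that were higher, at 64.8 and 241, 69.8 and 149, and 5.66 and 17.2 FPKM. Shorter ones whose ratio was far below that of the host, whatever its direction, lay in TANC1, STRN3, ITGA1, COPA, RP11-122A3.2, RP11-13N12.1 and SAMD4A, and ones far above it in COPA, SIPA1L3, IL1RAPL1, TYMS and PITPNC1.

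Of the 11 members that were higher within a host at least 2-fold lower, 5 lay in LAMA2, the laminin alpha 2 chain of basement membranes (chr6:129204286-129837714, plus strand). Its gene sum was 8.52 and 1.75 FPKM. Its 18 intronic transcripts had medians of 0.668 and 1.60 FPKM and ranges of 0 to 2.20 and 0 to 3.34 FPKM, so they overlapped widely. Of 15 measured, 12 had a positive ratio, 5 were called higher and 2 lower. These levels are low, and the 2 annotated genes overlapping LAMA2 that are at 1 FPKM or more, the pseudogenes MESTP1 and BMPR1APS1, stood at 2.13 and 3.25 FPKM and at 2.65 and 2.28 FPKM.

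The intronic RNA of hosts with microRNA genes was then examined. Of the 197 hosts with microRNA genes, taken with any number of intronic transcripts, 33 (16.8%) had a mean intronic level at least 2-fold lower and 3 (1.52%) at least 2-fold higher. Over all 5128 hosts these shares were 16.4% and 2.01%, so microRNA hosts stood near the rest. ODZ4 contains MIR708 (chr11:79113066-79113153), and its intronic mean was 4.56 and 0.501 FPKM. The row of the MIR708 hairpin itself was listed at 3.24 FPKM and then at 0, over 88 bases. LPP, a focal adhesion protein with 48 intronic transcripts, contains MIR28, and 17 of its 46 measured transcripts were lower and none higher, with medians of 3.37 and 1.33 FPKM. C21orf34 contains MIR99A, MIRLET7C and MIR125B2, and its 2 intronic transcripts of 281 and 388 bases had 2.85 and 2.50 FPKM in young cells, and both were listed at 0 in senescent cells. C6orf155 contains MIR30A and MIR30C2, the pair with a common seed, and its single intronic transcript of 1282 bases was 11.7 and 23.4 FPKM, just within 2-fold, beside a host at 8.81 and 20.6 FPKM. The same mature miR-125b-5p also comes from MIR125B1 in RP11-166D19.1, whose 12 intronic transcripts had a mean of 5.08 and 4.48 FPKM. Mature miR-30c-5p also comes from MIR30C1 in NFYC, whose 2 intronic transcripts had a mean of 1.59 and 0.740 FPKM. Transcript rows of hairpin length are below the length at which the values of these libraries can be converted to fragments.

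Gene lists chosen for the machinery that makes or removes intronic RNA held few intronic transcripts, and their genes were mostly within 2-fold. The counts of intronic transcripts in this and the following lists are to be read beside the 23.2% lower and 3.34% higher over all measured ones, whose median was −0.56. Those of genes are to be read beside the 8.59% lower and 6.66% higher over all 17938 measured genes. Of 27 measured genes of the nuclear exosome and its cofactors, which degrade nuclear RNA, 1 was lower and none higher, with a median of −0.26 beside −0.10 over all genes. That gene was EXOSC9, a core subunit, at 9.96 and 3.99 FPKM, while the catalytic EXOSC10 was 56.5 and 42.2 FPKM. The exosome list's 22 measured intronic transcripts had 3 lower and none higher. The helicase cofactor SKIV2L2 had introns at 2.11 and 0.898 FPKM and a gene level of 49.0 and 37.2 FPKM. Of 11 genes of lariat release and debranching none was called either way, with a median of −0.20. The helicase DHX15, which releases spliceosomes, was 78.6 and 51.0 FPKM, and the lariat-associated CWF19L2 was 4.30 and 1.99 FPKM.

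Of 37 measured genes of the core spliceosome, 1 was lower and none higher, with a median of −0.21. The lower one was SF3B3, of the branch-site complex, at 82.7 and 37.0 FPKM, whereas SF3B1 of the same complex was 263 and 229 FPKM. The list's 12 measured intronic transcripts had 1 higher, in SNRPB2, and 1 lower, in CDC5L. Of 21 genes for polyadenylation within introns and for elongation none was called either way, with a median of −0.22. Their 17 measured intronic transcripts had 6 lower and none higher, few in number and with a median of −0.63 near that of all intronic transcripts, and in WDR33, a subunit that reads the polyadenylation signal, 3 of 4 were lower with a mean of 4.73 and 1.51 FPKM. The WDR33 gene was 27.5 and 21.5 FPKM. SCAF8, a C-terminal-domain-binding factor that restrains early polyadenylation, had introns at 2.16 and 1.22 FPKM and the elongation factor SUPT6H at 7.12 and 4.39 FPKM.

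Among hosts grouped by function, matrix and fibroblast genes had 74 measured intronic transcripts, with a median of −0.69, 29 called lower and 6 higher. The 35 genes of this list had a median of −1.45, and 20 were lower and 1 higher. FBN2, fibrillin 2, had 13 of 14 lower, with medians of 3.03 and 0.360 FPKM and a host at 52.8 and 9.09 FPKM, and COL5A1, a fibrillar collagen chain, had 5 of 17 lower with a host at 34.0 and 13.0 FPKM. Of the 6 higher transcripts in this list 5 were those of LAMA2. Cell division and replication genes had 24 measured intronic transcripts, of which 19 were lower and none higher, with a median of −1.49, and 46 of 48 genes were lower. In EZH2, the histone methyltransferase of Polycomb, the median intronic level was 0.793 and 0.106 FPKM and the gene 10.4 and 1.52 FPKM, and POLA1, the catalytic subunit of DNA polymerase alpha, had introns at 1.19 and 0.209 FPKM. The 6 intronic transcripts of the mitotic motor KIF11 did not reach 1 FPKM.

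Contractile and adhesion genes were balanced as genes, and their introns stood near the shares over all intronic transcripts. The list's 31 genes had a median of 0.07, with 4 called higher and 3 lower, but its 143 measured intronic transcripts had a median of −0.58, with 37 called lower and 8 higher. MYLK, the kinase of myosin light chain, had intronic medians of 8.92 and 5.78 FPKM with 3 of 22 lower, beside a host at 613 and 471 FPKM. ITGA2, an integrin collagen receptor, had 2 of 13 higher and none lower, with medians of 5.05 and 7.15 FPKM. A list of genes of the senescent secretory programme and genes that accompany it, picked for being higher in these same libraries, had 12 of 21 measured intronic transcripts higher and none lower, with a median of 1.43 beside 2.72 for its genes. Not all of its genes encode secreted factors, since it holds the cyclin CCND2 and the cystine importer SLC7A11. Because the genes were chosen on this direction, the count is no independent evidence of it. ADAMTS19 held 6 of those 12 and SLC7A11 3 of 7, whereas in STC2, stanniocalcin 2, both were within 2-fold.

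The authors' own calls were far fewer, and lower members again outnumbered higher ones. In the authors' deposited table, a total of 350 of the 20745 members are marked as differing, 299 lower and 51 higher in the senescent library. That is 1.44% lower and 0.246% higher, where over all its transcripts 0.981% were marked lower and 0.706% higher. Those marks come from 1 library per group.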

How the data were processed

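Per the labels' protocols, complementary DNA from total RNA of young and senescent WI-38 cells was amplified by a NuGEN Ovation kit that takes up RNA with and without polyA tails. The submitters' processing notes list the tools TopHat2 2.0.6, Cufflinks 2.0.2 and Cuffdiff, and the build hg19. Counting strand and annotation are not given in the sources used here. The authors deposited 1 table of transcripts with an FPKM per library, a class, and a p-value and q-value, and the deposited fold ratio was left unused. The column named old was taken as the senescent library.

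Members were rows of the intronic class of 200 bases or more outside the Y chromosome. The members and the 8 gene lists were chosen with earlier results of these data known. A host's level was the summed FPKM of 3 classes by gene name. A pseudocount of 1 FPKM was added before log2 ratios, and with 1 library per group a rule of size (2-fold) stood in for a test. Named transcripts were, at 5 FPKM or more, the 10 at each end of the ratio, the 8 at each end of the difference to the host and the 6 most abundant per library. Named hosts were the 12 with most transcripts, 5 at each end, and 3 per list, and genes outside this rule are marked or were picked after their values were seen. Some genes that the rule names are not reported here. Functions stated for genes are general knowledge.

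FPKM times length less 200 bases gave the effective depth, at which within a tolerance of 0.05 whole fragments made up 85.8% of 1674 low values of unnamed loci for young and 87.8% of 2239 for senescent cells, against 10% by chance. Among intronic members the shares were 43.0% and 52.4%, so fragments were not recovered and no count test was run. Coordinates are those of the host in the deposited file (hg19), since no genome of that build was used here and intronic sequence was not read. Computation used Python 3.11.15, pandas 2.3.3 and numpy 2.4.6, and the counting was tested on simulated data.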

Additional observations from a re-analysis of the deposited data

How the results depend on the processing

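No paired analysis was possible because each group holds 1 library, and for the same reason no library could be left out. Across the other alternatives 78 values for the summary results moved little and 35 moved more. Only the medians could reverse in sign, since counts and shares cannot, and none of the medians did. With a pseudocount of 0.1 FPKM, 1134 intronic transcripts were higher and 7587 lower, 859 lay above and 5947 below their host, the median difference to the host was −0.67, and 50 hosts had higher and 765 lower introns. With 0.5 FPKM these host counts were 34 and 497. Without a filter on low values 839 transcripts lay above their host. With 5 FPKM required, 169 were higher and 1001 lower, 53 above and 521 below their host, with 8 and 67 hosts. With a length of 1000 bases or more, 74 were higher and 724 lower, 57 above and 537 below, with 6 and 52 hosts, and the shares of the library were 2.20% and 1.56%. Scaling to an equal median ratio of named genes moved the host median to −0.042. With 1 FPKM in both libraries, 191 were higher and 1225 lower, the median was −0.37, and 202 lay above and 1335 below the host. With 1 FPKM in the senescent library 1225 were lower with a median of −0.28 and 1396 lay below the host, and with 1 FPKM in the young library 191 were higher and 330 lay above. The counts at stricter filters are of fewer transcripts. For named transcripts and hosts, the pseudocount and scaling alternatives left 434 values on their side of 2-fold and brought 6 past it. A smaller pseudocount can only widen a ratio, and the scalings shifted log2 ratios by at most 0.087. A value already past 2-fold could therefore hardly move back.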
